A study of Mus musculus with 30 samples.

Results

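The Ifit family of the mouse, the interferon-induced proteins with tetratricopeptide repeats, was followed through whole B16 melanoma tumors. Its members were taken by gene symbol: Ifit1, Ifit1bl1, Ifit1bl2, Ifit2, Ifit3 and Ifit3b, which are 6 of the 39676 gene identifiers in the count table. RNA-seq counts came from 30 tumors at day 8, with 10 biological replicates, as the labels call them, of each of 3 types: B16-GFP, B16-IFNA4 and B16-IFNA9. All 3 lines derive from B16-F10, a pigmented melanoma line of C57BL/6 mice, and were grown under the skin of C57BL/6 mice. B16-IFNA4 and B16-IFNA9 cells carried a retroviral vector for murine IFNα4 or IFNα9 with enhanced GFP, and B16-GFP cells carried the same kind of vector with GFP alone. Every line, the control included, also carried herpes simplex virus glycoprotein B with cyan fluorescent protein, and firefly luciferase with puromycin resistance. Each type is 1 sorted line, so an effect of the interferon and a property of that line cannot be told apart. The interferon was expressed by the tumor cells under a retroviral promoter and was followed here only as RNA at day 8. The RNA came from the whole tumor, host cells included.

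Ifit genes are among the classic targets of type I interferon. IFNα binds its receptor and signals through JAK kinases to ISGF3, a complex that holds IRF9 and binds interferon-stimulated response elements upstream of its targets. Ifit proteins are made of helical repeats that form a pocket for RNA, and Ifit1 is known for binding viral RNA whose cap lacks 2′-O methylation and blocking its translation. Ifit2 and Ifit3 are partners in Ifit complexes, Ifit3b is a close copy of Ifit3, and Ifit1bl1 and Ifit1bl2 are Ifit1-related genes of the mouse.

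The 6 genes lie side by side on chromosome 19 (GRCm38, GENCODE M21), are all protein coding, and no other row of the table falls between them. In order along the chromosome they are Ifit2 (chr19:34550694-34576419, plus strand), Ifit3 (chr19:34583531-34588731, plus), Ifit1bl1 (chr19:34592891-34601956, minus), Ifit3b (chr19:34607970-34613401, plus), Ifit1bl2 (chr19:34617049-34640743, minus) and Ifit1 (chr19:34640871-34650009, plus). None of their exons overlap another gene.

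The RefSeq sequence upstream of the start sites (GRCm38.p6) was searched for GAAANNGAAA, a core of the interferon-stimulated response element, on both strands over 250 bases. A match is a description of the letters and not a binding site. Of 32851 windows of this length, 2.98% held the motif and 0.180% held it 2 or more times. Ifit3, Ifit3b and Ifit1 had 2 matches each, Ifit1bl1 had 1 at each of its start sites, and Ifit2 had 0 at both of its start sites. Ifit1bl2 had 2 at the start next to Ifit1 and 0 at its other start. Ifit1 and Ifit1bl2 point away from each other with 127 bases between their gene starts in GENCODE M21, the RefSeq start of Ifit1 lying further downstream, so their 2 matches are the same letters. The upstream windows of Ifit3 and Ifit3b aligned with 216 of 224 columns identical (96.4%). These windows are printed below 5′ to 3′ because they show the copied and the shared motifs, with the motif in capitals, the region between Ifit1bl2 and Ifit1 (chr19:34640744-34640870) on the plus strand and the others on the strand of the gene (chr19:34583279-34583528 for Ifit3, chr19:34607707-34607956 for Ifit3b and chr19:34601969-34602218 for Ifit1bl1).
Ifit1bl2 to Ifit1: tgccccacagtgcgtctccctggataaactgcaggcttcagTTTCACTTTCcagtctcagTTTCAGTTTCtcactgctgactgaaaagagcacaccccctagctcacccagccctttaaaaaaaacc
Ifit3: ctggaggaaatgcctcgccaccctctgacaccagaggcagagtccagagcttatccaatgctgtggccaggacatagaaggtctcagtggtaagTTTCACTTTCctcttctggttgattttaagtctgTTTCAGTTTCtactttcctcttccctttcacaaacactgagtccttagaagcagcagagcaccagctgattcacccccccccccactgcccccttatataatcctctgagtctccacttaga
Ifit3b: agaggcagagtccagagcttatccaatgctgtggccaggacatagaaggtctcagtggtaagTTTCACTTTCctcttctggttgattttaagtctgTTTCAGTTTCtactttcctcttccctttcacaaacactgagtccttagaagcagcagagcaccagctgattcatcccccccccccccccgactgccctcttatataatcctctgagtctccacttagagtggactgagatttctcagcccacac
Ifit1bl1: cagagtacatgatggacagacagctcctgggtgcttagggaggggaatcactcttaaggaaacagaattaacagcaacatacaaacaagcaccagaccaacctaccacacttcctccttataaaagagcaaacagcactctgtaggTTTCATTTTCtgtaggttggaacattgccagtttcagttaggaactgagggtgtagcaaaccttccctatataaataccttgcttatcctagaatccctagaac

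Shared sequence limits how far reads can be given to 1 member. Of the 50-base stretches in the exons of Ifit3, 51.2% were also in Ifit3b, and 44.5% of those of Ifit3b were in Ifit3, with 50 bases being the length of the single-end reads. Ifit1 shared 7.06% of its stretches with Ifit1bl2, and Ifit1bl1 shared 6.36% with Ifit1bl2. Ifit2 shared 0 with any other gene. How reads with several alignments were counted is not given in the sources used here, so the values of Ifit3 and Ifit3b are uncertain as separate genes. Those of Ifit1bl2 are uncertain too, since in B16-IFNA4 tumors its mean was 37.5 CPM against 569 for Ifit1. The part of Ifit1 reads in the Ifit1bl2 counts was not tested. With Ifit1 and Ifit1bl2 summed, the log2 fold changes against B16-GFP were 3.85 in B16-IFNA4 and 3.08 in B16-IFNA9. Between the interferon types the summed change was -0.77.

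Libraries held 14598517 to 19788383 counts. Counts of Ifna4 were 81 to 188 in B16-IFNA4 tumors and 0 in all others, and counts of Ifna9 were 55 to 148 in B16-IFNA9 tumors and 0 in all others, as labelled. Melanocyte markers were present in every type, and all 4 of the 8 listed that had a row fell in both interferon types, while all 8 leukocyte markers rose. Against B16-GFP, 34.1% of the 15926 genes tested were called lower and 31.3% higher in B16-IFNA4, and 28.9% lower and 26.9% higher in B16-IFNA9 (edgeR quasi-likelihood test, Benjamini-Hochberg adjusted p under 0.05). The summed melanocyte markers ranged from 7375 to 25263 CPM in B16-GFP, 2195 to 3572 in B16-IFNA4 and 3356 to 8967 in B16-IFNA9. The summed leukocyte markers ranged from 356 to 1069, 1472 to 3055 and 1092 to 2123 CPM. B16-GFP replicate 7 held the highest melanocyte sum and the lowest leukocyte, keratinocyte and fibroblast sums. Other marker lists moved too. Endothelial markers were lower for 4 of 5 in both interferon types, while the other, Kdr, was higher in B16-IFNA4 (log2 fold change 1.35). Macrophage and monocyte markers were higher for 2 of 6 in each interferon type and lower for 1 in B16-IFNA4. Fibroblast markers were higher for 1 of 4 in each. Keratinocyte markers were higher for 4 of 5 in B16-IFNA4 and 2 of 5 in B16-IFNA9. Skeletal muscle markers were lower for 4 of 6 in B16-IFNA9 than in B16-GFP. Between the interferon types, 5 of 6 skeletal muscle and 3 of 5 endothelial markers were lower in B16-IFNA9, and 3 of 4 melanocyte markers were higher. One macrophage and monocyte list of 6 had 1 higher and 1 lower. Shares of all genes tested there were 7.25% lower and 10.5% higher. The relation of each member to the leukocyte and melanocyte markers within a type is given further on, and the part of the markers in the differences between types was not tested. In whole tumors a change in the number of cells of a type and a change in RNA per cell cannot be told apart.

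All 6 Ifit genes were higher in B16-IFNA4 than in B16-GFP tumors, by 8.79-fold to 68.0-fold, and all 6 were higher in B16-IFNA9 than in B16-GFP tumors, by 6.51-fold to 22.0-fold. Ifit1bl1 had the largest fold and Ifit2 the smallest in both comparisons. Between the interferon types, 5 of 6 were lower in B16-IFNA9 than in B16-IFNA4 tumors, and Ifit2 did not pass the test. The background was broad: of 15926 genes tested, 31.3% were called higher in B16-IFNA4 than in B16-GFP, 26.9% were called higher in B16-IFNA9 than in B16-GFP, and 7.25% were called lower and 10.5% higher in B16-IFNA9 than in B16-IFNA4 (edgeR). The median log2 fold change of all genes tested was 0.01 or less in size in these comparisons. The 2 comparisons with B16-GFP share their control tumors. Without B16-GFP replicate 7 the same numbers of members were called, with log2 fold changes of 3.12 to 6.01 in B16-IFNA4 and 2.68 to 4.37 in B16-IFNA9.

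Every B16-IFNA4 tumor was above every B16-GFP tumor for all 6 genes, which held for 8.5% of genes tested. The same was true of B16-IFNA9 against B16-GFP, where it held for 4.44% of genes tested. B16-IFNA9 tumors were all below all B16-IFNA4 tumors for Ifit1, Ifit3 and Ifit3b, against 0.741% of genes tested.

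**Figure D1:**
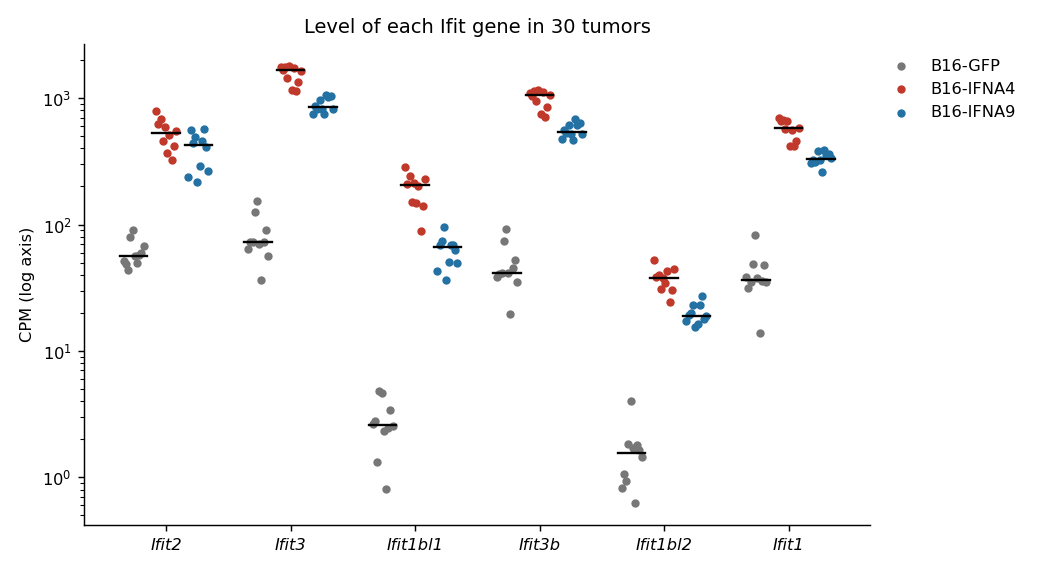
CPM of each Ifit gene on a log axis, with genes in chromosomal order, 1 point per tumor and a bar at the median of 10 tumors. All B16-IFNA4 and B16-IFNA9 points of a gene sit above its B16-GFP points, and the interferon types overlap for Ifit2, Ifit1bl1 and Ifit1bl2.

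Ifit1, the RNA cap sensor of the family, ranged in B16-GFP tumors from 13.8 to 82.1 CPM with a median of 36.6. In B16-IFNA4 tumors it ranged from 417 to 693 with a median of 579, and in B16-IFNA9 tumors from 260 to 387 with a median of 333. The 3 ranges did not overlap. Ifit1 rose by 3.81 ± 0.19 (SE) on the log2 scale in B16-IFNA4 (edgeR adjusted p = 3.18e-16) and by 3.05 ± 0.18 in B16-IFNA9 (edgeR adjusted p = 5.71e-14). It was lower in B16-IFNA9 than in B16-IFNA4 by a log2 fold change of -0.76 ± 0.17 (edgeR adjusted p = 0.00213).

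Ifit1bl1, an Ifit1-related gene, was low in the control tumors. B16-GFP tumors held 0.804 to 4.81 CPM (median 2.58), from 9 to 86 counts. B16-IFNA4 tumors held 88.8 to 286 CPM (median 206) and B16-IFNA9 tumors 36.6 to 95.1 CPM (median 65.8). Of the B16-IFNA9 tumors, 9 lay below every B16-IFNA4 tumor. The log2 fold change was 6.09 ± 0.26 (SE) in B16-IFNA4, the smallest p of all genes tested (edgeR adjusted p = 3.95e-17), and 4.46 ± 0.25 in B16-IFNA9 (edgeR adjusted p = 1.16e-14). The difference between the interferon types, -1.63 ± 0.21, was the widest of the family (edgeR adjusted p = 2.57e-06).

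Ifit1bl2, which faces Ifit1 across the 127 bases printed above, was the lowest member. It held 0.625 to 4.02 CPM in B16-GFP (median 1.54), 24.2 to 52.3 in B16-IFNA4 (median 37.9) and 15.3 to 27.2 in B16-IFNA9 (median 19.01). The interferon types overlapped by 1 tumor on each side. Its log2 fold change was 4.54 ± 0.22 (SE) in B16-IFNA4 (edgeR adjusted p = 2.61e-16), 3.61 ± 0.22 in B16-IFNA9 (edgeR adjusted p = 5.71e-14) and -0.93 ± 0.19 between them (edgeR adjusted p = 7.94e-04).

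Ifit2, the member with no shared stretch and no motif match in its windows, was, like Ifit1, Ifit3 and Ifit3b, already expressed in the controls. It ranged from 43.6 to 91.2 CPM in B16-GFP tumors (median 56.4). It ranged from 324 to 788 in B16-IFNA4 (median 532) and from 218 to 568 in B16-IFNA9 (median 426), and 6 of 10 B16-IFNA9 tumors lay within the B16-IFNA4 range. Ifit2 rose by 3.14 ± 0.19 (SE) on the log2 scale in B16-IFNA4 (edgeR adjusted p = 2.70e-14) and by 2.70 ± 0.19 in B16-IFNA9 (edgeR adjusted p = 1.23e-12). The log2 difference between the interferon types was -0.43 ± 0.18 (edgeR adjusted p = 0.0931), which did not pass the threshold.

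Ifit3 was the highest member in every type. It ranged from 36.7 to 155 CPM in B16-GFP tumors (median 72.7), from 1134 to 1801 in B16-IFNA4 (median 1662) and from 744 to 1060 in B16-IFNA9 (median 846), with no overlap. Ifit3b held 19.6 to 92.8 (median 41.4), 709 to 1166 (median 1051) and 464 to 679 CPM (median 544), also with no overlap. Ifit3 rose by 4.24 ± 0.19 (SE) and 3.45 ± 0.18 on the log2 scale in B16-IFNA4 and B16-IFNA9, and Ifit3b rose by 4.36 ± 0.19 and 3.54 ± 0.19. Between the interferon types the log2 fold changes were -0.79 ± 0.16 for Ifit3 and -0.82 ± 0.17 for Ifit3b (edgeR adjusted p = 0.00100 and 9.77e-04). With the counts of both genes summed, which removes the question of how their reads were split, the log2 fold changes were 4.29, 3.48 and -0.80.

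**Figure D2:**
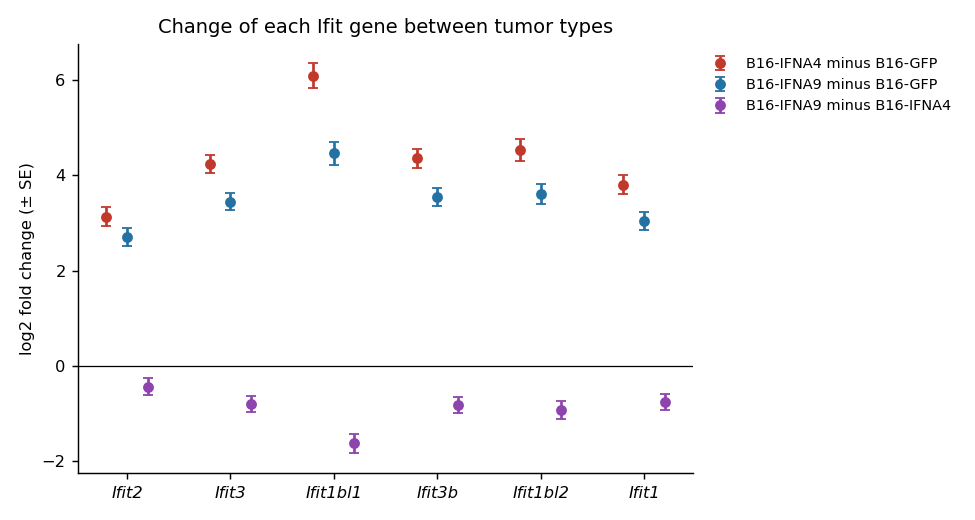
log2 fold change with its standard error for each Ifit gene, in chromosomal order, in the 3 comparisons. Ifit1bl1 stands highest against B16-GFP (6.09 and 4.46) and lowest between the interferon types (-1.63), and Ifit2 is nearest to 0 in all 3.

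Per kilobase of exon, the order of the members was the same in both interferon types. In B16-IFNA4 tumors the mean level was 887 ± 146 CPM per kilobase (SD, n = 10) for Ifit3, 494 ± 82.8 for Ifit3b, 214 ± 39.5 for Ifit1, 135 ± 36.8 for Ifit2, 84.5 ± 25.8 for Ifit1bl1 and 11.1 ± 2.40 for Ifit1bl2. In B16-IFNA9 tumors it was 511 ± 68.1, 280 ± 36.3, 126 ± 14.58, 100.2 ± 33.4, 27.4 ± 7.68 and 5.86 ± 1.08 in that order. In B16-GFP tumors it was 46.8 ± 19.7 for Ifit3, 24.1 ± 10.5 for Ifit3b, 15.4 ± 3.82 for Ifit2, 15.3 ± 6.57 for Ifit1, 1.22 ± 0.559 for Ifit1bl1 and 0.472 ± 0.284 for Ifit1bl2. The means of Ifit1 and Ifit2 lay closer than their SD in B16-GFP, and their ranges over tumors overlapped in all 3 types. Ranges do not compare the 2 genes within a tumor, and their order per kilobase within tumors was not tested. In B16-IFNA4, Ifit3 was 26th of the 39495 genes that could be ranked by mean CPM per kilobase. Genes without a row, such as Pmel and Isg15, are outside this rank, and sequence shared with Ifit3b leaves the level of Ifit3 uncertain.

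The family summed to 121 to 429 CPM in B16-GFP, 2698 to 4688 in B16-IFNA4 and 1824 to 2673 in B16-IFNA9 tumors. Ifit2 made up 27.0% ± 6.01 (SD, n = 10) of these counts in B16-GFP, 13.6% ± 1.49 in B16-IFNA4 and 17.0% ± 3.89 in B16-IFNA9. Ifit1bl1 went the other way, with 1.14% ± 0.279, 4.85% ± 0.783 and 2.71% ± 0.522. Ifit3 held the largest share in each type, between 34.2% and 40.2% on average.

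**Figure D3:**
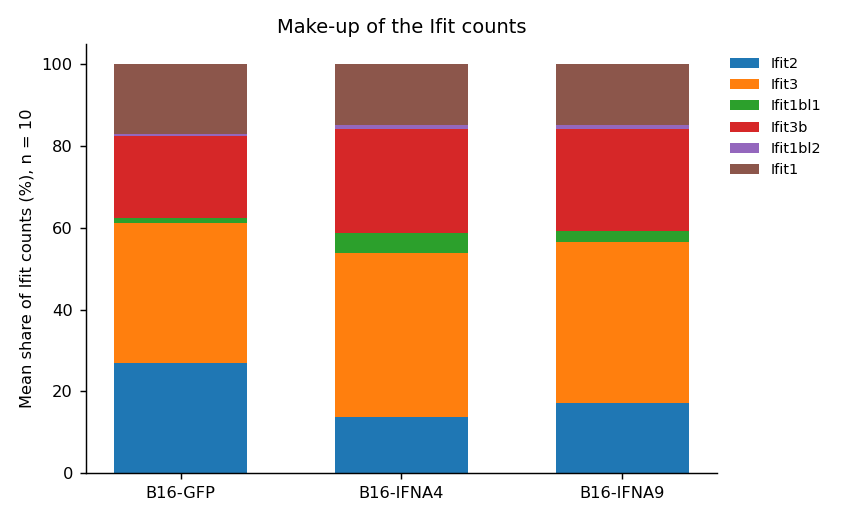
Mean share of the summed Ifit counts held by each gene, in percent, over 10 tumors of each type. Ifit2 shrinks from 27.0% in B16-GFP to 13.6% in B16-IFNA4 and Ifit1bl1 widens from 1.14% to 4.85%.

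Whether members moved by unequal amounts was tested with the ratio of counts of 2 members in the same tumor, which does not depend on library scaling. All 15 pairs were compared between tumor types, giving 45 two-sided permutation tests with 100000 resamples, adjusted together. The ratio differed in 13 of 15 pairs between B16-IFNA4 and B16-GFP, in 13 of 15 between B16-IFNA9 and B16-GFP (12 without B16-GFP replicate 7), and in 7 of 15 between the interferon types. Pairs share members and so are not independent. Pairs of genes outside the family were not tested, so these counts have no background. Against B16-GFP, 31.3% of all genes tested were called higher and 34.1% lower in B16-IFNA4, and 26.9% and 28.9% in B16-IFNA9.

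Ifit1bl1 and Ifit2 diverged most. The log2 ratio of Ifit1bl1 to Ifit2 was -4.50 ± 0.50 (SD, n = 10) in B16-GFP, -1.50 ± 0.17 in B16-IFNA4 and -2.64 ± 0.23 in B16-IFNA9, and the 3 types did not overlap. The permutation test gave adjusted p = 6.92e-05 for B16-IFNA4 against B16-GFP, 9.47e-05 for B16-IFNA9 against B16-GFP and 6.92e-05 between the interferon types, with differences of 3.00, 1.86 and -1.14. All 5 pairs with Ifit1bl1 differed in every comparison.

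Ifit1bl1 also parted from its relative Ifit1bl2. Their log2 ratio was 0.77 ± 0.49 (SD, n = 10) in B16-GFP, 2.31 ± 0.21 in B16-IFNA4 and 1.61 ± 0.28 in B16-IFNA9 (permutation test, adjusted p = 6.92e-05, 5.12e-04 and 9.47e-05 for B16-IFNA4 against B16-GFP, B16-IFNA9 against B16-GFP and B16-IFNA9 against B16-IFNA4). The other 2 of the 7 pairs that differed between the interferon types were Ifit1bl2 with Ifit2, by -0.45, and Ifit2 with Ifit3b, by 0.34 (permutation test, adjusted p = 0.00425 and 0.0407).

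Some pairs without Ifit1bl1 did not pass the test, which does not show that their ratio was kept. The ratio of Ifit1bl2 to Ifit3b did not pass the test in any comparison, with log2 differences of 0.13, 0.03 and -0.10. With 5 counts added to each gene its differences from B16-GFP changed sign, to -0.036 in B16-IFNA4 and -0.13 in B16-IFNA9. Ifit1bl2 held only 7 to 73 counts in B16-GFP tumors. For Ifit1 to Ifit1bl2, which share the 127-base region, the log2 ratio was 4.61 ± 0.39 (SD, n = 10) in B16-GFP, 3.93 ± 0.22 in B16-IFNA4 and 4.09 ± 0.20 in B16-IFNA9. It was lower than in B16-GFP in both interferon types (permutation test, adjusted p = 1.50e-04 and 9.75e-04) and did not pass between them (adjusted p = 0.117). The log2 ratio of Ifit3 to Ifit3b was 0.77 ± 0.07, 0.65 ± 0.03 and 0.67 ± 0.03, a difference from B16-GFP of -0.12 and -0.10 (permutation test, adjusted p = 6.92e-05 and 3.67e-04). The part that reads common to both genes had in this narrow ratio was not tested.

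**Figure D4:**
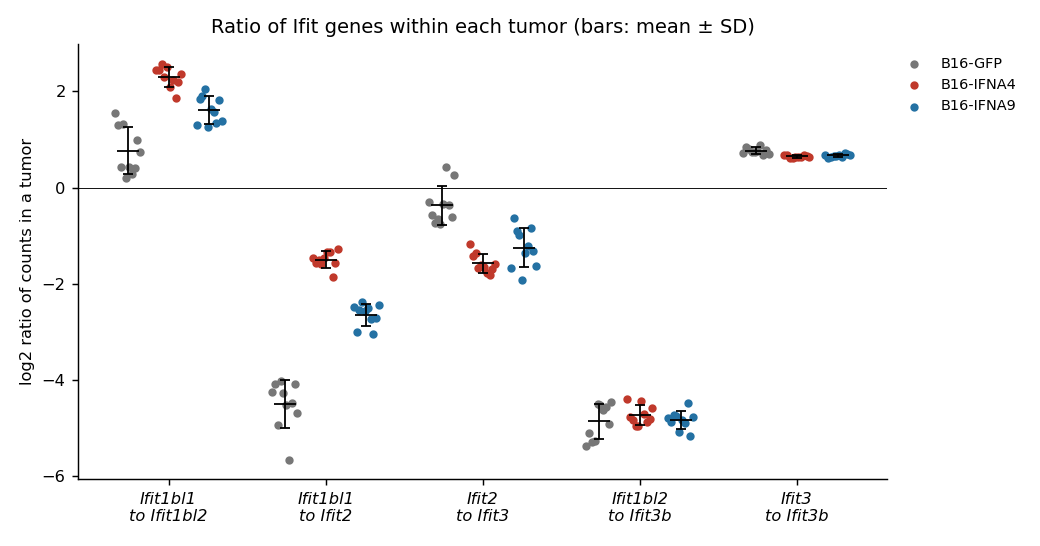
log2 ratio of the counts of 2 Ifit genes in the same tumor, for 5 pairs, with 1 point per tumor and the mean ± SD of 10 tumors of each type. Ifit1bl1 to Ifit2 separates the 3 types (-4.50, -1.50 and -2.64), and Ifit1bl2 to Ifit3b stays between -4.86 and -4.73 on average.

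Within a tumor type, each member was set against the mean log2 CPM of the leukocyte markers, that of the melanocyte markers, and the transgene in the interferon types, 48 relations in all. After adjustment 2 passed by Pearson's r, both in B16-IFNA4 with leukocyte markers, and 2 by Spearman's rho. In B16-GFP tumors r with the leukocyte markers ran from 0.20 to 0.75 over the 6 members and none passed (lowest adjusted p = 0.132, permutation test). It ran from 0.60 for Ifit1 to 0.96 for Ifit1bl2 in B16-IFNA4, and from 0.07 for Ifit1 to 0.84 for Ifit2 in B16-IFNA9. In B16-IFNA4 tumors, Ifit1bl2 was correlated with the leukocyte markers (Pearson r = 0.96, permutation p = 2.00e-05, adjusted p = 9.60e-04, and Spearman rho = 0.90, permutation p = 8.80e-04, adjusted p = 0.0211, n = 10). Without replicates 1 and 8, the 2 tumors farthest from the median of the markers, r was 0.87 (permutation p = 0.00389) and did not pass after adjustment (adjusted p = 0.187). Ifit1bl1 gave r = 0.89 (permutation p = 6.60e-04, adjusted p = 0.0158) and rho = 0.73 (permutation p = 0.0205, adjusted p = 0.223), and r = 0.67 without the same tumors, which did not pass (adjusted p = 0.639, permutation test). Leaving out the tumors at the ends of the marker range also leaves a narrower range and 8 tumors.

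In B16-IFNA9 tumors, Ifit2 had r = 0.84 with the leukocyte markers (permutation p = 0.00391, adjusted p = 0.0626) and rho = 0.93 (permutation p = 3.80e-04, adjusted p = 0.0182), and r = 0.69 without replicates 5 and 10 (adjusted p = 0.639, permutation test), so r did not pass with or without them. Ifit1 in the same tumors had r = 0.07 (permutation p = 0.854, adjusted p = 0.953) and rho = 0.19 (permutation p = 0.605, adjusted p = 0.833). Whether these 2 relations differ was not tested. Across the members, r with the transgene ran from 0.28 to 0.52 in B16-IFNA4 and from -0.45 to 0.32 in B16-IFNA9, and none passed (lowest adjusted p = 0.302 and 0.356, permutation test). No relation with the melanocyte markers passed in any type (lowest adjusted p = 0.117, permutation test).

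**Figure D5:**
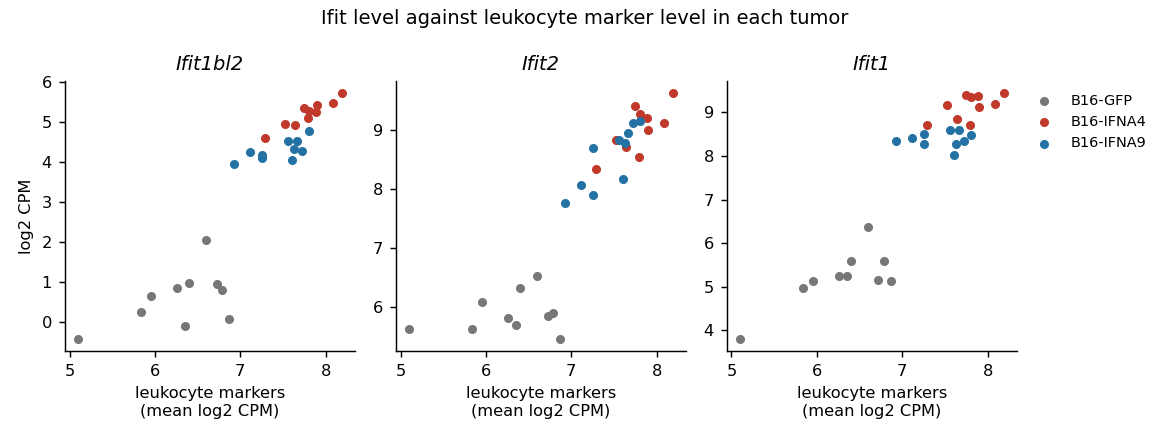
log2 CPM of Ifit1bl2, Ifit2 and Ifit1 against the mean log2 CPM of 8 leukocyte markers, 1 point per tumor. For Ifit1bl2, Ifit2 and Ifit1 in turn, r was 0.52, 0.20 and 0.75 within B16-GFP, 0.96, 0.75 and 0.60 within B16-IFNA4, and 0.69, 0.84 and 0.07 within B16-IFNA9.

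The genes whose pattern was most like the mean of the 6 members over all 30 tumors were Phf11c (Pearson r = 0.998), Phf11d (0.996), Rsad2 (0.995), Ifih1 (0.994) and Usp18 (0.993). After the mean of each type was subtracted, they were Phf11c (0.949), Phf11d (0.948), Rnf213 (0.921), Mx1 (0.912) and Rsad2 (0.910). These values describe 30 tumors that share libraries and scaling with the members.

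The signaling genes upstream of Ifit were followed in the same fit. Irf9, a part of ISGF3, rose by 1.71 ± 0.11 (SE) on the log2 scale in B16-IFNA4 and by 1.43 ± 0.11 in B16-IFNA9. Tyk2, a receptor kinase, rose by 0.64 ± 0.10 and 0.65 ± 0.10. Neither passed the test between the interferon types (edgeR). Ifnar1, a chain of the receptor, passed in no comparison, at 0.12 in B16-IFNA4, -0.03 in B16-IFNA9 and -0.15 between the interferon types. All 6 interferon regulatory factors listed rose in both, where 31.3% and 26.9% of all genes tested were called higher, led in B16-IFNA4 by Irf7 at 3.44 ± 0.21, Irf1 at 1.67 ± 0.23 and Irf5 at 1.52 ± 0.17. Between the interferon types, 2 of the 6 were lower in B16-IFNA9, Irf7 (-0.96 ± 0.19) and Irf5 (-0.49 ± 0.16), and 1 was higher, Irf1 (0.85 ± 0.22), beside 7.25% and 10.5% of all genes tested.

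Among 3 feedback genes with a row, Usp18, which removes ISG15 and restrains the receptor, rose by 3.72 ± 0.18 in B16-IFNA4 and by 2.98 ± 0.18 in B16-IFNA9. Usp18 was lower in B16-IFNA9 than in B16-IFNA4 (-0.74, edgeR adjusted p = 0.00212). Socs3, an inhibitor of cytokine signaling, did not pass in B16-IFNA4 (0.13 ± 0.17), and was lower in B16-IFNA9 than in B16-GFP (-0.43, edgeR adjusted p = 0.0380) and than in B16-IFNA4 (-0.56, edgeR adjusted p = 0.0245). Ptpn2 did not pass in any comparison. Of 7 RNA sensing genes, 4 rose in B16-IFNA4 and 5 in B16-IFNA9, against 31.3% and 26.9% of all genes tested, led by the RNA helicases Dhx58 at 3.03 ± 0.19, Ifih1 at 2.80 ± 0.14 and Ddx58 at 2.49 ± 0.14 in B16-IFNA4. All 14 other antiviral effectors with a row rose in both types, with median log2 fold changes of 2.59 and 1.95, where 31.3% and 26.9% of all genes tested were called higher. Of these 14, 9 were lower in B16-IFNA9 than in B16-IFNA4, beside 7.25% of all genes tested. Mx1, a dynamin-like antiviral GTPase, led in B16-IFNA4 against B16-GFP at 4.25 ± 0.23, ahead of Oas3 at 3.69 ± 0.23 and Mx2 at 3.45 ± 0.19.

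Of 6 genes that make or methylate RNA caps, the feature Ifit1 reads, 1 rose and 2 fell in B16-IFNA4, and 1 rose and 1 fell in B16-IFNA9, none of these shares being above those of all genes tested (31.3% higher and 34.1% lower in B16-IFNA4, 26.9% and 28.9% in B16-IFNA9). In B16-IFNA4, Cmtr1, a 2′-O methyltransferase of the cap, rose by 0.70 ± 0.09, Cmtr2 fell by 0.44 ± 0.12 and Rngtt, the capping enzyme, fell by 0.32 ± 0.10 on the log2 scale. The translation factor eIF3 is a known partner of Ifit proteins. Only 9 of its 14 listed genes had a row, with Eif3j1 and Eif3j2 counted separately. Those called lower were 7 of 9 in B16-IFNA4 and 9 of 9 in B16-IFNA9, where 34.1% and 28.9% of all genes tested were called lower. Their median log2 fold changes over the 9 genes were -0.59 and -0.46. Eif3i changed by -0.82 ± 0.14, Eif3b by -0.78 ± 0.09 and Eif3k by -0.68 ± 0.15 in B16-IFNA4. Slc16a12, the only listed neighbour of the locus with a row, did not pass in any comparison, at 0.63 ± 0.29 in B16-IFNA4 and 0.00 ± 0.29 in B16-IFNA9.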

How the data were processed

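Total RNA from whole tumors was made into stranded mRNA libraries and read as 50-base single ends. The authors aligned reads with HISAT2 2.0.4 after FastQC 0.11.3 and counted them per gene with summarizeOverlaps. Their processing notes name mm10 and their methods another build, and coordinates here are those of GENCODE M21 (GRCm38). The deposited table holds raw counts for 39676 identifiers, of which 39495 were found in GENCODE M21.

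The 15926 genes averaging 10 or more counts over the tumors were tested in 1 fit over 30 tumors with edgeR 4.0.16 (R 4.3.3), TMM scaling and the quasi-likelihood test, with Benjamini-Hochberg adjustment and a threshold of 0.05. Library size was the count in tested genes. CPM uses TMM-scaled library sizes and log2 CPM adds a prior count of 2. Each standard error is the fold change divided by the square root of F. Ratios within a tumor added 2 counts to each gene. Permutation tests were two-sided with 100000 resamples, so that 1e-05 is the smallest p they can give, run with numpy 2.4.6 and scipy 1.17.1. Scripts were tested on simulated data. DESeq2 1.42.0 and other settings were alternatives, as given in the closing section.

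The members and lists were chosen with earlier results of these data known. All 6 members are named, with the 3 called genes of largest change in B16-IFNA4 from each pathway list, every listed neighbour with a row, and the 5 genes most correlated with the family. Ifnar1, Socs3 and Ptpn2, and the interferon regulatory factors between the interferon types, were named after their values were seen. Listed genes without a row, such as Isg15 and Stat2, were not analysed here, and 1 gene of the receptor and ISGF3 list, with that list's counts, is not reported here. Within types, no 2 libraries agreed within sampling noise (lowest chi-square per gene 14.1 over 11436 genes).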

Additional observations from a re-analysis of the deposited data

Results flagged for a closer look

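The log2 ratio of Ifit1 to Ifit2 in B16-GFP replicate 7 was -1.82, apart from the other 9 control tumors, with a gap of 0.523 of the range, above Dixon's limit for 10 values. It was 1 value among 63 groups of 10 values searched, where chance alone would flag about 1 in 20. The same tumor held the lowest Ifit1, Ifit1bl1, Ifit1bl2, Ifit3 and Ifit3b levels of its type and the lowest leukocyte and highest melanocyte marker sums, and their part in the ratio was not tested.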

How the results depend on the processing

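All 6 members were called in B16-IFNA4 and in B16-IFNA9 against B16-GFP, and 5 of 6 between the interferon types, with DESeq2, its size factors, library totals alone, filterByExpr, no filter, only the 2 types compared, and with any 1 tumor left out (6 to 6, 6 to 6 and 5 to 5). A library size from the whole table, added after seeing the data, gave the same counts. With members that share sequence summed into 3 rows, 3, 3 and 2 were called, and the test for a change above 2-fold called 0 of 6 between the interferon types. Ifit2 between the interferon types had an adjusted p of 0.0510 to 0.184 with 1 tumor left out and 0.0657 to 0.149 under the other settings (edgeR or DESeq2). Replicate numbers did not pair the tumors: same-numbered tumors correlated over 0.1 in 2, 2 and 0 of 10 pairs, and 1, 1 and 0 of 10 correlated best with their own number. A fit with the replicate number as a block called 6, 6 and 5 members. The sums of each pair that shares sequence were added after seeing the data.

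The ratio of Ifit1 to Ifit2 between B16-IFNA9 and B16-GFP was 0.37 without B16-GFP replicate 7 and no longer passed (adjusted p = 0.0628, permutation test), and Ifit1bl2 to Ifit3 in B16-IFNA4 passed with 0.5 counts added (0.35). With 5 counts added, 3 differences that had not passed changed sign: Ifit1bl2 to Ifit3 in B16-IFNA9 (-0.036), and Ifit1bl2 to Ifit3b in B16-IFNA4 (-0.036) and B16-IFNA9 (-0.13). No correlation that changed sign had passed. Without the 2 tumors farthest from the median, those with leukocyte markers in B16-GFP became -0.16 for Ifit1bl1 and -0.28 for Ifit2, and those with melanocyte markers 0.12 for Ifit1bl1 and 0.021 for Ifit3. With the transgene in B16-IFNA4 they became -0.033 for Ifit1, -0.37 for Ifit1bl1, -0.56 for Ifit1bl2 and -0.29 for Ifit2. In B16-IFNA9 those with melanocyte markers became 0.0053 for Ifit1bl2, 0.069 for Ifit2, 0.43 for Ifit3 and 0.49 for Ifit3b, and those with the transgene 0.15 for Ifit1bl2, 0.0027 for Ifit2, 0.66 for Ifit3 and 0.70 for Ifit3b. With library totals alone, Ifit1 with leukocyte markers in B16-IFNA9 was -0.064. The cause was not tested. Counts of 7 to 86 per tumor limit Ifit1bl1 and Ifit1bl2 in B16-GFP.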
